A study of Mus musculus with 4 samples.

Results

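Ubiquitin-specific proteases (USPs) were examined in mouse embryonic fibroblasts (MEFs), the mesenchymal cells that grow from a dissociated embryo, with and without Med1, a subunit of the Mediator complex. The genes were those whose symbol is Usp followed by a number, leaving out Usp18, Usp29 and Usp9y, in the comparison of Med1-/- with Med1+/+ arrays. This gave 36 genes on 64 probe sets, out of 12393 genes with an unambiguous probe set. Another 3 probe sets name a USP gene beside a second gene and were not used. The symbols chose the genes, but the rule names the comparison between genotypes and was written with its outcome known. Differences and calls for these genes are therefore given as a description and support nothing further.

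The cells without Med1 were labelled Med1-/- p53-/- and their controls Med1+/+ p53-/-, so that all cells lacked p53. Both came from C57BL/6J embryos at embryonic day 10.0, out of 1 cross of Med1+/- p53-/- males with Med1+/- p53+/- females, and were grown in medium with fetal calf serum. Biotin-labelled total RNA was measured on Affymetrix arrays that favour the 3' ends of transcripts, 2 per genotype. Nothing in the labels says that replicate arrays hold RNA of separate cultures, so the spread between them may be technical. Effects of the embryo or culture of origin and of Med1 loss cannot be told apart.

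Ubiquitin is a small protein that is joined to other proteins and marks them for breakdown by the proteasome, for sorting in the cell or for a change of activity. USPs are the largest family of enzymes that remove it. They are cysteine proteases that share a catalytic domain, and they differ in the parts around it, which bring them to chromatin, to endosomes, to the proteasome or to signalling proteins.

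The deposited intensities did not share a scale, with medians of 36.1 and 51.4 for the Med1-/- arrays, against 76.25 and 106.65 for the Med1+/+ arrays. They were quantile normalized, and values below are normalized intensities unless they are said to be deposited ones. Log2 differences are Med1-/- minus Med1+/+, taken after adding 1.7 to each value, which understates the change of dim genes. Their standard errors (SE) rest on 2 arrays per genotype and are moderated in limma, which draws on the spread of the other features. A gene was called higher or lower where its adjusted p was under 0.05 in limma, with Benjamini-Hochberg adjustment over all 8923 features tested. Med1 had a normalized intensity of 47.1 and 53.0 on the Med1-/- arrays, against 631 and 591 on the Med1+/+ arrays, a log2 difference of -3.57. Of 13 fibroblast and mesenchyme markers 12 passed the intensity filter, and their summed intensity was 55804 and 52576 on the Med1-/- arrays, against 52920 and 49053 on the Med1+/+ arrays. The list was not uniform, with 5 of the 12 called higher, among them Col1a1 (log2 difference 1.98) and Thy1 (1.34), and 4 called lower, which were Pdgfra (-2.95), Prrx1 (-2.89), S100a4 (-2.68) and Dcn (-1.99). Of 5 blood markers on the arrays 1 passed the filter, Csf1r, with intensities of 67.8 and 66.2 on the Med1-/- arrays, against 49.5 and 37.3 on the Med1+/+ arrays, and the defining marker Ptprc was under it. Of 5 endothelial markers 1 passed, Kdr, with intensities of 49.0 and 38.2 on the Med1-/- arrays, against 24.1 and 51.1 on the Med1+/+ arrays, and Cdh5 and Pecam1 were under it. Neither Csf1r nor Kdr was called. Smooth muscle markers summed to 30953 and 29203 on the Med1-/- arrays, against 13998 and 13599 on the Med1+/+ arrays. Epithelial markers summed to 2334 and 2709 on the Med1-/- arrays, against 5033 and 5194 on the Med1+/+ arrays. Of 6 that passed the filter Krt19, the brightest on the Med1-/- arrays, was higher (1.61), and Cdh1 (-4.50), Krt18 (-4.45), Dsg2 (-4.39), Dsp (-3.92) and Krt8 (-1.96) were lower. The part of these markers in the USP results was not tested, and in RNA of whole cultures fewer cells of a type and less RNA per cell cannot be told apart.

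More USP genes were lower than higher in Med1-/- cells. Of the 36 genes 29 had a probe set above the intensity filter, and of these 16 were called lower, 8 were called higher and 5 were not called. Of all features tested 75.3% were called, 36.2% lower and 39.1% higher, which is the background of these counts. The largest falls were those of Usp34, Usp33 and Usp24, and the largest rises those of Usp2, Usp10 and Usp36. Of the 29 genes tested, 12 were called lower and 5 called higher by at least 2-fold, against 19.2% and 21.2% of all features tested. The median log2 difference of the 29 genes was -0.49, against 0.09 over all features, and the median absolute log2 difference was 1.06, against 0.836 over all features. Both arrays of 1 genotype lay beyond both of the other for 25 of the 29 genes and for 88.2% of all features.

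**Figure D1:**
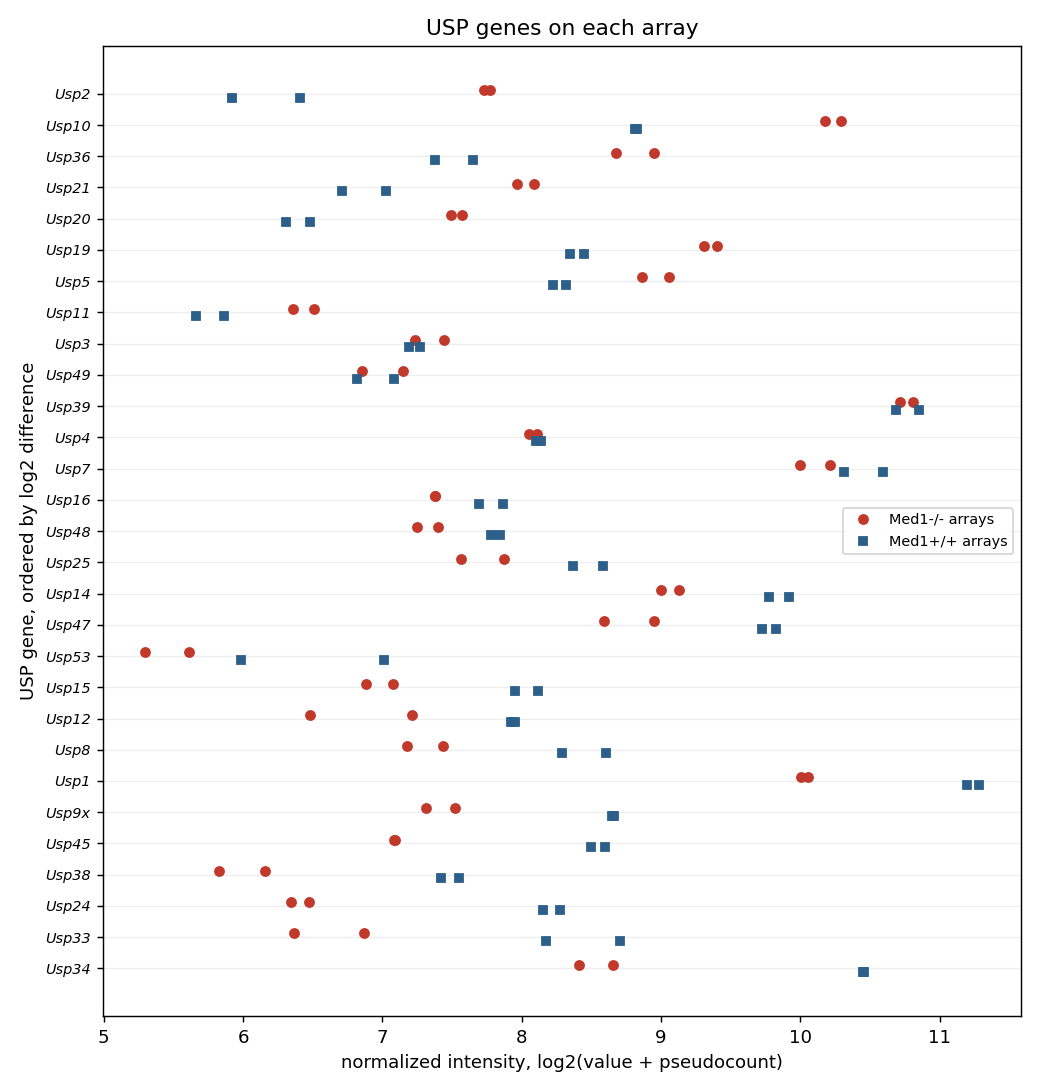
Normalized intensity, as log2(value + 1.7), of the 29 USP genes above the filter, with 1 point per array (circles, 2 Med1-/- arrays; squares, 2 Med1+/+ arrays). Genes are ordered from Usp2, with the largest rise (log2 difference 1.59), to Usp34, with the largest fall (-1.92), and the genotypes overlap for Usp3, Usp49, Usp39 and Usp4.

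The balance of higher and lower calls depended on the scaling of the arrays. Of all calls 51.9% were higher after quantile normalization, but 6.45% in the values as deposited and 18.1% after scaling on the hybridisation control probe sets. The median log2 difference of all features was 0.30 where array medians were made equal and 0.11 where the 75th percentiles were. It was -0.76 as deposited and -0.77 on the hybridisation controls. The USP median minus that of all features was -0.58 after quantile normalization. It was -0.70 in the values as deposited, and the scalings that multiply each array by 1 factor leave this difference nearly fixed by construction. After quantile normalization 20 of the 29 USP genes lay below the median of all features and 9 above it. The 16 genes called lower had a negative log2 difference under every scaling, and 15 of them were called lower under every scaling, the exception being Usp16 with array medians set equal. As deposited and on the hybridisation controls the features as a whole shifted down, so that lower calls are easily kept there. The share of all features that kept a lower call under every scaling was not counted. Of the 8 genes called higher, 6 had a positive log2 difference under every scaling, whereas Usp5 and Usp11 turned negative as deposited (-0.17 and -0.36) and on the hybridisation controls (-0.18 and -0.37). In the values as deposited 0 USP genes were called higher by limma, and 0 at an unadjusted p under 0.05. Only 265 of 8919 features were called higher by limma there. On the hybridisation controls Usp2 (0.59), Usp10 (0.62) and Usp36 (0.39) were still called higher, beside 1178 of 8918 features. The other USP rises were called only in comparison with the rest of the transcripts measured.

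**Figure D2:**
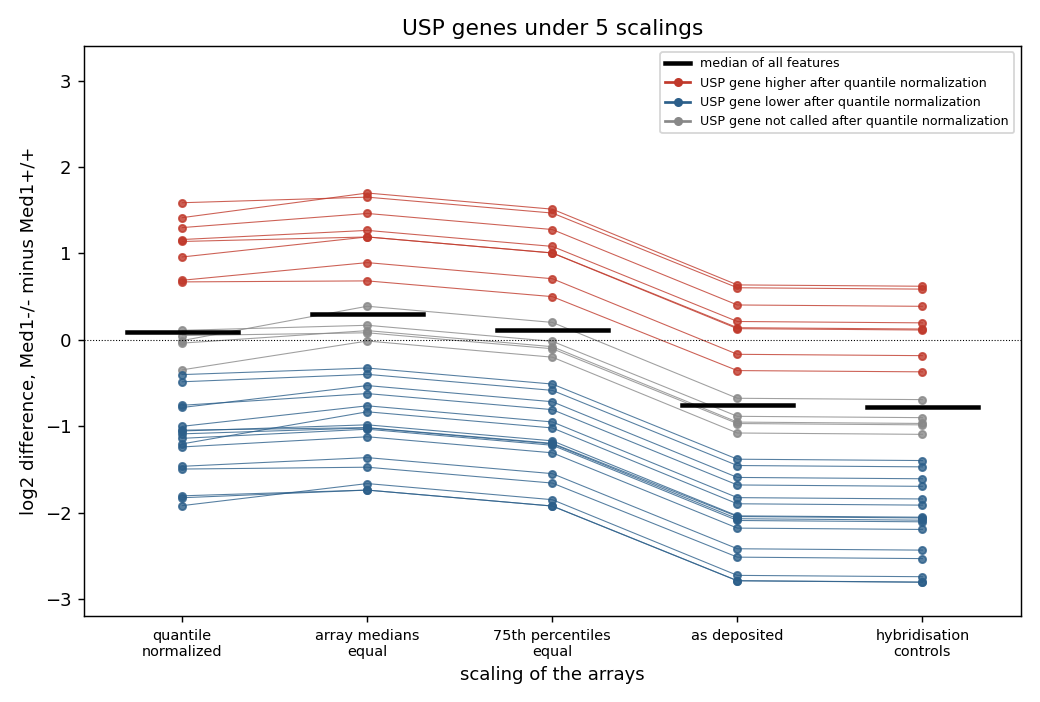
Log2 difference, Med1-/- minus Med1+/+, of each of the 29 USP genes (points joined by lines) under 5 scalings of the arrays, with the median of all features as a thick bar. The median of all features moves between 0.30 and -0.77, and by construction the USP genes shift with it wherever each array is multiplied by 1 factor.

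Among USPs of endosomes, receptors and membrane traffic 3 of 6 genes tested were higher and 3 were lower. Of all features 39.1% were higher and 36.2% lower. Usp2, whose protein acts on cyclin D and circadian clock proteins as well as on membrane transporters, had normalized intensities of 216 and 211 on the Med1-/- arrays, against 83.2 and 58.9 on the Med1+/+ arrays. Its log2 difference was 1.59 (SE 0.20), with both Med1-/- arrays above both Med1+/+ arrays. The genotypes did not overlap for 88.2% of all features. A second Usp2 probe set above the filter had a log2 difference of 2.46. In the deposited values the brighter probe set read 121.3 and 168.6 on the Med1-/- arrays, against 93.6 and 93.7 on the Med1+/+ arrays. That difference was not called in the values as deposited (log2 difference 0.60). Usp10, whose protein binds the stress granule proteins G3BP and recycles membrane channels from endosomes, had intensities of 1154 and 1254 on the Med1-/- arrays, against 447 and 454 on the Med1+/+ arrays, a log2 difference of 1.41 (SE 0.11). This was a 2.66-fold rise with little spread within either genotype.

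Usp20 and Usp33 encode close relatives that in human cells bind the von Hippel-Lindau protein and recycle the beta-adrenergic receptor, and they moved apart. Usp20 had intensities of 189 and 179 on the Med1-/- arrays, against 87.8 and 77.6 on the Med1+/+ arrays (log2 difference 1.14, SE 0.15). Usp33 had intensities of 80.6 and 115 on the Med1-/- arrays, against 288 and 417 on the Med1+/+ arrays (log2 difference -1.83, SE 0.24). The arrays of each genotype did not overlap for either gene, as for 88.2% of all features, and Usp33 varied more within a genotype. Usp8, which encodes the endosomal protease that frees growth factor receptors of ubiquitin and binds the sorting protein STAM, fell. Its intensities were 172 and 143 on the Med1-/- arrays, against 388 and 311 on the Med1+/+ arrays (log2 difference -1.14, SE 0.16). Usp12, whose protein needs WD-repeat partners for full activity, had intensities of 87.7 and 146 on the Med1-/- arrays, against 245 and 241 on the Med1+/+ arrays (log2 difference -1.09, SE 0.24). The Usp12 fall depended in size on a single array, being -1.43 without the second Med1-/- array and -0.72 without the first.

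USPs of TGF-beta and Wnt signalling included the largest fall. Of 4 genes 3 were lower and Usp4 was not called, beside 36.2% lower of all features. Usp34, whose human protein removes ubiquitin from the Wnt pathway scaffold axin, had intensities of 402 and 340 on the Med1-/- arrays, against 1403 and 1402 on the Med1+/+ arrays (log2 difference -1.92, SE 0.12). This is a 3.78-fold lower value in Med1-/- cells, and its second probe set above the filter differed by -1.68. In the deposited values Usp34 read 233.5 and 283.7 on the Med1-/- arrays, against 1432 and 2047 on the Med1+/+ arrays.

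Usp9x encodes a large protease that removes ubiquitin from Smad4, a carrier of TGF-beta signals, and lies on the X chromosome. It had intensities of 182 and 157 on the Med1-/- arrays, against 400 and 404 on the Med1+/+ arrays (log2 difference -1.24, SE 0.13). All 4 of its probe sets above the filter had log2 differences between -1.45 and -1.24, and its 3 dimmer ones were also below 0. Usp15, which encodes a regulator of TGF-beta receptors and Smads, had intensities of 133 and 117 on the Med1-/- arrays, against 276 and 246 on the Med1+/+ arrays (log2 difference -1.06, SE 0.14). Usp4, the closest relative of Usp15, encodes a protease that acts on the TGF-beta type I receptor in human cells. It had intensities of 274 and 264 on the Med1-/- arrays, against 280 and 273 on the Med1+/+ arrays (log2 difference -0.04, SE 0.12), and the genotypes overlapped.

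**Figure D3:**
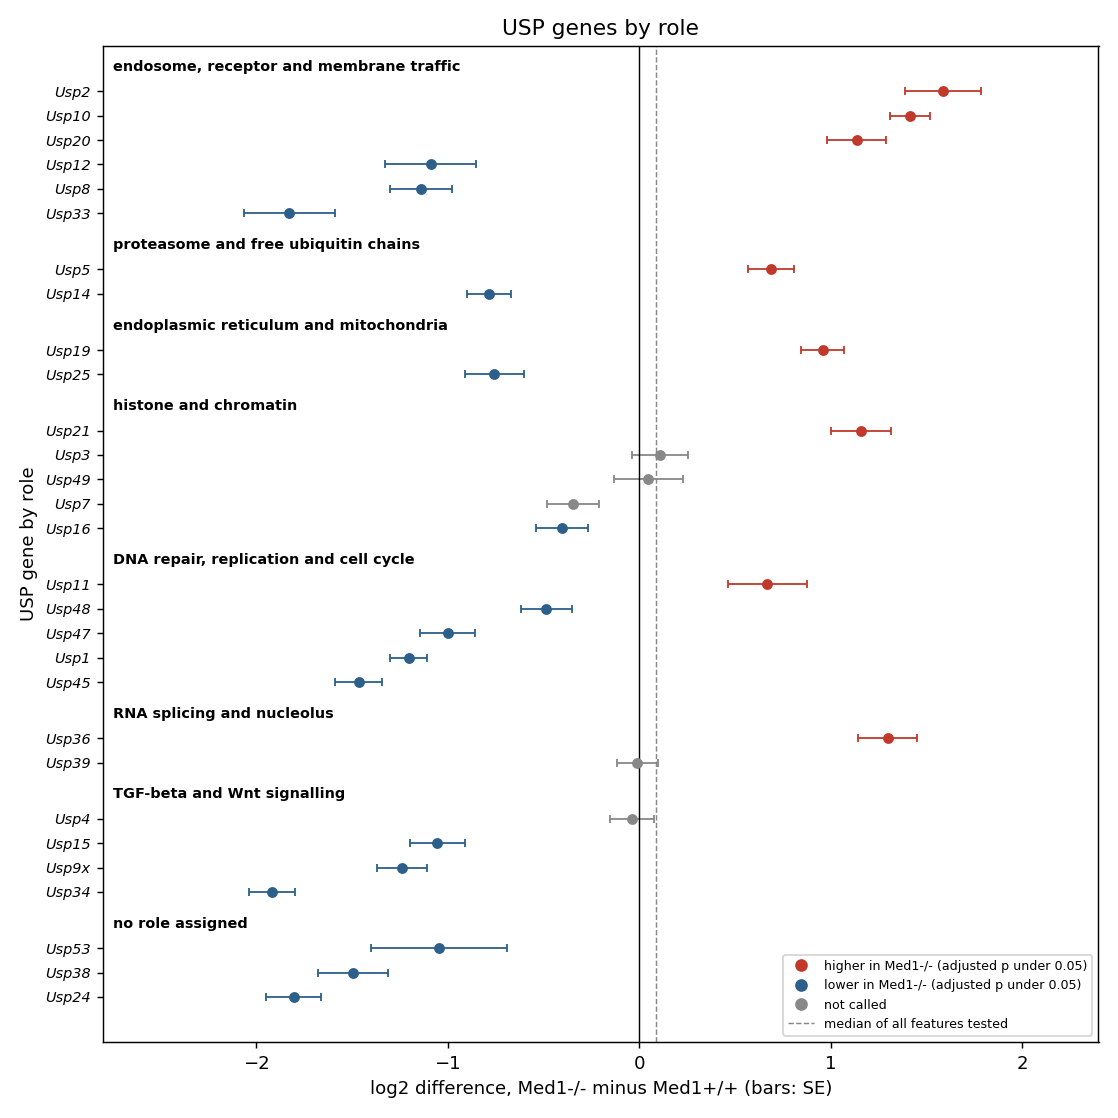
Log2 difference, Med1-/- minus Med1+/+, of the 29 USP genes above the filter, grouped by role (points, estimates from limma; bars, SE; colours, calls at an adjusted p under 0.05). The dashed line is the median of all features, 0.09. Higher and lower genes stand side by side in most role groups, and the genes with no role assigned are all lower, from -1.05 to -1.81. Of all features 36.2% were lower and 39.1% higher.

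The promoters of the genes with the largest rise and the largest fall are shown as the sequence context of the extremes of the family, and were chosen by the size of the log2 difference alone. They are the 250 bases before a start site that RefSeq gives on GRCm38.p6, chr9:44084670-44084919 for Usp2 and chr11:23306645-23306894 for Usp34, both on the plus strand. Each gene may have other start sites. Capitals mark the letters GGGCGG on either strand (CCGCCC on the strand shown), known as a GC box.
Usp2: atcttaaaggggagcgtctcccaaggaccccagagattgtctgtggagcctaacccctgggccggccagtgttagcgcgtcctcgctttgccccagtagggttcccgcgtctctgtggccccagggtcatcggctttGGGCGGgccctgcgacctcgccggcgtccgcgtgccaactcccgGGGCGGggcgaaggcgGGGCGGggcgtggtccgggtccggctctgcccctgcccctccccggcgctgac
Usp34: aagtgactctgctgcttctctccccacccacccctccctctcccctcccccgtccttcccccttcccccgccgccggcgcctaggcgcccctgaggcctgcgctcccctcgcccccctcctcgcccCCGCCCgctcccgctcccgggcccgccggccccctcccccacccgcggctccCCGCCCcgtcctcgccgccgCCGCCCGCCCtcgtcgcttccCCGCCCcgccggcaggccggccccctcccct
The Usp2 window holds 3 matches and the Usp34 window 5, of which a pair overlaps. The windows differ in composition, with 90 C and 89 G for Usp2 (71.6% C or G) and 156 C and 49 G for Usp34 (82%). A promoter entry was found for 26 of the 36 USP genes, and 18 of these (69.2%) held the letters, against 63.4% of 6440 genes tested here and 32.9% of all 27025 genes with an entry. Among genes called higher 5 of 7 windows held them, and among genes called lower 8 of 11. The median number of CG pairs per window was 24 for USP genes and 17 for genes tested. A match describes the letters only.

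Among USPs of DNA repair, replication and the cell cycle 4 of 5 genes tested were lower and 1 was higher. The shares of all features were 36.2% lower and 39.1% higher. Usp1, which encodes the protease that removes ubiquitin from the repair protein FANCD2 and the replication clamp PCNA, had intensities of 1029 and 1065 on the Med1-/- arrays, against 2488 and 2343 on the Med1+/+ arrays (log2 difference -1.20, SE 0.10). All 3 of its probe sets were called lower, with differences from -1.56 to -0.99. Usp45, whose human protein acts on the repair nuclease subunit ERCC1, had intensities of 134 and 134 on the Med1-/- arrays, against 386 and 360 on the Med1+/+ arrays (log2 difference -1.46, SE 0.12). For the probe sets used, the replicate arrays of both genes lay close together, far inside the distance between the genotypes. A second Usp45 probe set above the filter was also called lower (-1.09) but varied more. It had 99.5 and 144 on the Med1-/- arrays, against 177 and 370 on the Med1+/+ arrays. Usp47, whose protein acts on DNA polymerase beta, had intensities of 494 and 385 on the Med1-/- arrays, against 905 and 844 on the Med1+/+ arrays, a 2.001-fold fall. Usp48 differed by -0.49 (SE 0.13), a call that was lost without either Med1+/+ array (-0.46 without the first and -0.53 without the second) and without the second Med1-/- array (-0.40). Usp11, an X-linked gene whose protein takes part in BRCA2-dependent repair, was the gene called higher, with intensities of 89.5 and 80.3 on the Med1-/- arrays, against 49.1 and 56.5 on the Med1+/+ arrays (log2 difference 0.67, SE 0.21). That call was lost without the first Med1+/+ array (0.57), without the second (0.77) and without the first Med1-/- array (0.59).

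The X-linked members thus lay in both directions, Usp9x lower and Usp11 higher, while Usp26 and Usp27x were under the filter. Beside them, the X-linked RNA Xist, which coats the inactive X chromosome, had intensities of 364 and 201 on the Med1-/- arrays, against 6771 and 5839 on the Med1+/+ arrays. The part of X inactivation, or of the sex of the embryos, in these values was not tested. Neither can be told apart from Med1 loss in the X-linked members.

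Among USPs of histones and chromatin 1 of 5 genes tested was higher, 1 was lower and 3 were not called. Of all features 39.1% were higher and 36.2% lower. Usp21, whose protein acts on histone H2A, rose, with intensities of 249 and 270 on the Med1-/- arrays, against 129 and 103 on the Med1+/+ arrays (log2 difference 1.16, SE 0.16). Usp16, whose protein also acts on H2A, had intensities of 165 and 165 on the Med1-/- arrays, against 206 and 232 on the Med1+/+ arrays (log2 difference -0.40, SE 0.13). It was called lower, and leaving out any 1 of the 4 arrays ended that call (log2 differences from -0.50 to -0.33). Usp3, whose protein acts on histones H2A and H2B, had intensities of 173 and 149 on the Med1-/- arrays, against 153 and 144 on the Med1+/+ arrays. Usp49, a protease of H2B, had intensities of 140 and 114 on the Med1-/- arrays, against 134 and 111 on the Med1+/+ arrays. Both overlapped between the genotypes and were not called. Usp7, whose protein keeps the p53 inhibitor Mdm2 from breakdown, had intensities of 1189 and 1020 on the Med1-/- arrays, against 1546 and 1270 on the Med1+/+ arrays. Its log2 difference of -0.35 (SE 0.14) was not called, but was called lower without the second Med1+/+ array (-0.49) and without the first Med1-/- array (-0.45). A dimmer Usp7 probe set differed by 0.45 in the opposite direction.

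The remaining groups were small. Usp5, which encodes the protease that takes apart free ubiquitin chains, was higher, with intensities of 531 and 465 on the Med1-/- arrays, against 318 and 297 on the Med1+/+ arrays (log2 difference 0.69, SE 0.12). Usp14, which encodes a protease bound to the proteasome, was lower, with intensities of 511 and 560 on the Med1-/- arrays, against 876 and 969 on the Med1+/+ arrays (log2 difference -0.78, SE 0.11). Of the other Usp14 probe sets, one was called lower (-0.62) and one, of the kind that can match other transcripts, was not called (0.08). Usp19, which encodes a protease with a form anchored in the endoplasmic reticulum, was higher, with intensities of 676 and 633 on the Med1-/- arrays, against 348 and 324 on the Med1+/+ arrays (log2 difference 0.96, SE 0.11). Usp25, whose human protein rescues proteins from breakdown at the endoplasmic reticulum, had intensities of 187 and 233 on the Med1-/- arrays, against 328 and 382 on the Med1+/+ arrays (log2 difference -0.76, SE 0.15). For these 4 genes the arrays of the genotypes did not overlap, as for 88.2% of all features. Usp36, which encodes the nucleolar USP, had intensities of 494 and 407 on the Med1-/- arrays, against 199 and 165 on the Med1+/+ arrays (log2 difference 1.30, SE 0.16), while its dimmer probe set differed by 0.35 and was not called. Usp39, which encodes a splicing factor that has lost protease activity, had intensities of 1794 and 1679 on the Med1-/- arrays, against 1847 and 1650 on the Med1+/+ arrays. Its log2 difference was -0.01 (SE 0.11), and it was called higher with array medians set equal (0.39) and lower on the hybridisation controls (-0.69). Like the Usp14 probe set that was not called, those used for Usp7, Usp38, Usp39 and Usp45 were of kinds that can match other transcripts.

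Usp24, Usp38 and Usp53, to which no role was assigned, were all lower, as were 36.2% of all features. Usp24, a large relative of Usp9x, had intensities of 79.4 and 87.3 on the Med1-/- arrays, against 283 and 308 on the Med1+/+ arrays (log2 difference -1.81, SE 0.14). Its second probe set differed by -0.45 and was not called, so the size of this fall depended on the probe set. Usp38 had intensities of 55.1 and 69.6 on the Med1-/- arrays, against 186 and 170 on the Med1+/+ arrays (log2 difference -1.50, SE 0.18). Usp53, whose loss causes deafness in mice and whose protein sits at tight junctions, had intensities of 37.6 and 47.3 on the Med1-/- arrays, against 61.8 and 128 on the Med1+/+ arrays (log2 difference -1.05, SE 0.36). This call was lost without the second Med1+/+ array (-0.52) and without the first Med1-/- array (-0.89).

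Several of the proteases are grouped in close relatives, and some groups held both higher and lower genes. Usp4, Usp11 and Usp15 had log2 differences of -0.04, 0.67 and -1.06, with 1 not called, 1 higher and 1 lower. Usp20 and Usp33 were on opposite sides at 1.14 and -1.83. Usp9x and Usp24 were both lower (-1.24 and -1.81), Usp16 and Usp45 both lower (-0.40 and -1.46), and Usp2 and Usp21 both higher (1.59 and 1.16). Differences between members of a group were not tested.

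Probe sets of the same gene gave a further view of each difference, although they share the same 4 RNA samples. Of 14 USP genes with several probe sets above the filter, 11 had all of them on the same side of 0, and the exceptions were Usp7, Usp14 and Usp39. The call was the same for all such probe sets of 10 genes and differed for Usp14, Usp24, Usp36 and Usp48. The median distance between the lowest and highest log2 difference of a gene was 0.372.

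**Figure D4:**
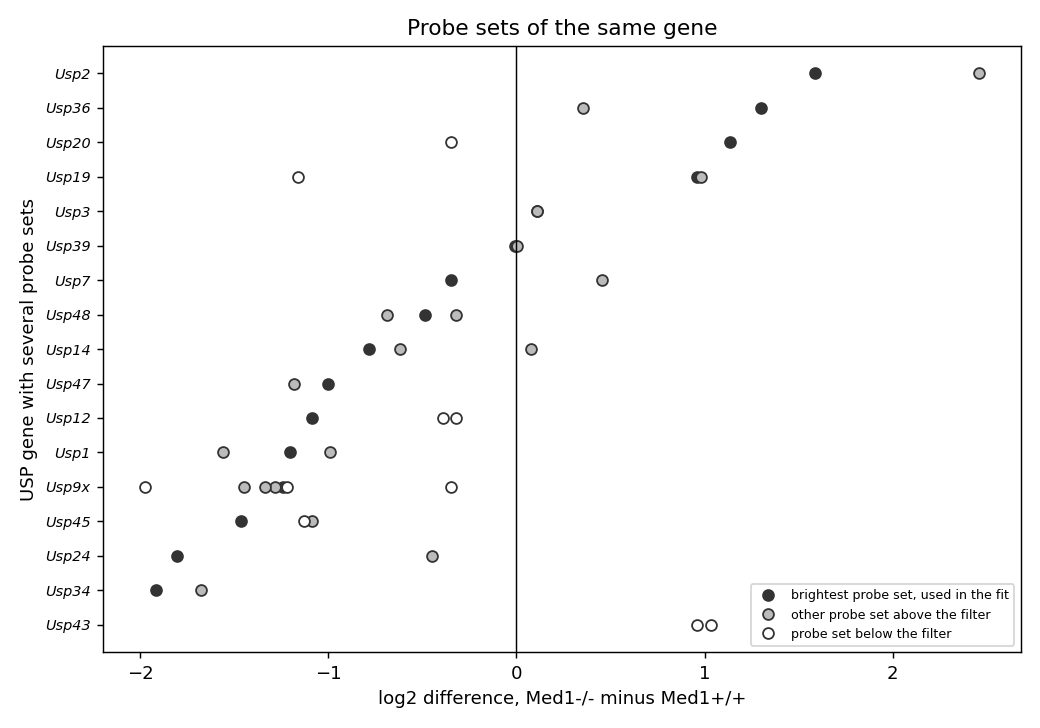
Log2 difference, Med1-/- minus Med1+/+, of every probe set of the 17 USP genes with several probe sets (black, the brightest one, used in the fit; grey, others above the filter; white, below the filter). Probe sets of Usp9x, Usp34 and Usp19 above the filter lie within 0.24 of each other, and those of Usp24 are 1.36 apart.

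The other 7 USP genes had no probe set above the filter, which lay at a mean log2 value of 4.98, and were not tested. Usp17la and Usp43 were just below it, at mean log2 values of 4.91 and 4.88. Usp17la, a member of a group of proteases induced by cytokines in blood cells, had intensities of 41.4 and 41.5 on the Med1-/- arrays, against 20.0 and 18.5 on the Med1+/+ arrays. Usp43 had intensities of 41.0 and 39.6 on the Med1-/- arrays, against 19.1 and 18.5 on the Med1+/+ arrays. For both the genotypes did not overlap, as for 88.2% of the features that were tested. Usp22, which encodes the histone H2B protease of the SAGA coactivator complex, had intensities of 18.8 and 20.3 on the Med1-/- arrays, against 25.1 and 23.6 on the Med1+/+ arrays. Usp13, Usp26, Usp27x and Usp42 stayed below 24 on every array.

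Of 32 genes listed from other deubiquitinase families, 21 were on the arrays, 18 were tested, 9 were lower, 7 higher and 2 not called, with a median log2 difference of -0.17. Of all features 36.2% were lower and 39.1% higher, with a median of 0.09. Besides Usp14, the proteasome holds the deubiquitinases Uchl5 and Psmd14. Uchl5 had intensities of 468 and 538 on the Med1-/- arrays, against 1123 and 1117 on the Med1+/+ arrays (log2 difference -1.16, SE 0.11). Psmd14 had intensities of 1933 and 1822 on the Med1-/- arrays, against 4346 and 3708 on the Med1+/+ arrays (log2 difference -1.10, SE 0.11). All 3 proteasome-bound deubiquitinases were thus lower. The 3 other deubiquitinases with the largest changes were Josd2 (2.08), of the Josephin family, Otud4 (-1.65), of the OTU family, and Cops5 (-1.39), the enzyme of the COP9 signalosome.

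Of 14 genes of USP protein partners tested 8 were lower, 4 higher and 2 not called, beside 36.2% lower and 39.1% higher of all features. Wdr48, whose human protein activates USP1, USP12 and USP46, was lower (-0.53, SE 0.19), as were Usp1 and Usp12. Wdr20, another gene of the partner list, was not called (-0.24, SE 0.14). Of the endosomal partners of USP8, Stam (-1.14) and Stam2 (-0.57) were lower and Hgs (1.18) was higher. Of the partners of USP10, G3bp1 was higher (0.35) and G3bp2 lower (-1.64). In the SAGA deubiquitinase module, Atxn7l3 was higher (0.81) and Eny2 lower (-1.23). Mdm2 and Mdm4, substrates of USP7 and USP2, were lower (-1.54 and -1.72). Sart3, which encodes the factor that brings USP4 and USP15 to the spliceosome, was higher (0.56). The genes of ubiquitin itself and of its activating enzymes were not analysed here.

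USP genes that were lower spanned more of the genome than those that were higher. The genomic length, taken from RefSeq on GRCm38.p6, had a median of 62.3 kb for the 16 lower genes and 22.6 kb for the 8 higher genes, and ran from 11.7 to 187 kb among the falls and from 6.01 to 47.2 kb among the rises. Usp34, with the largest fall, was the longest of them, and Usp21, which rose, the shortest. The 5 genes not called had a median of 56.05 kb, from 26.5 to 78.5 kb. Usp1, lower at 11.7 kb, lay within the range of the rises, as did the lower genes Usp14, Usp16 and Usp38. Over all features with a length the medians were 31.3 kb for lower calls, 15.3 kb for higher calls and 23.0 kb for features not called. Across the 29 USP genes the log2 difference had a Pearson r of -0.58 and a Spearman rho of -0.55 with genomic length (on a log scale for r), and across 7867 features r was -0.23 and rho -0.26. These are descriptions across genes, which share the same 4 arrays and are no independent replicates.

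**Figure D5:**
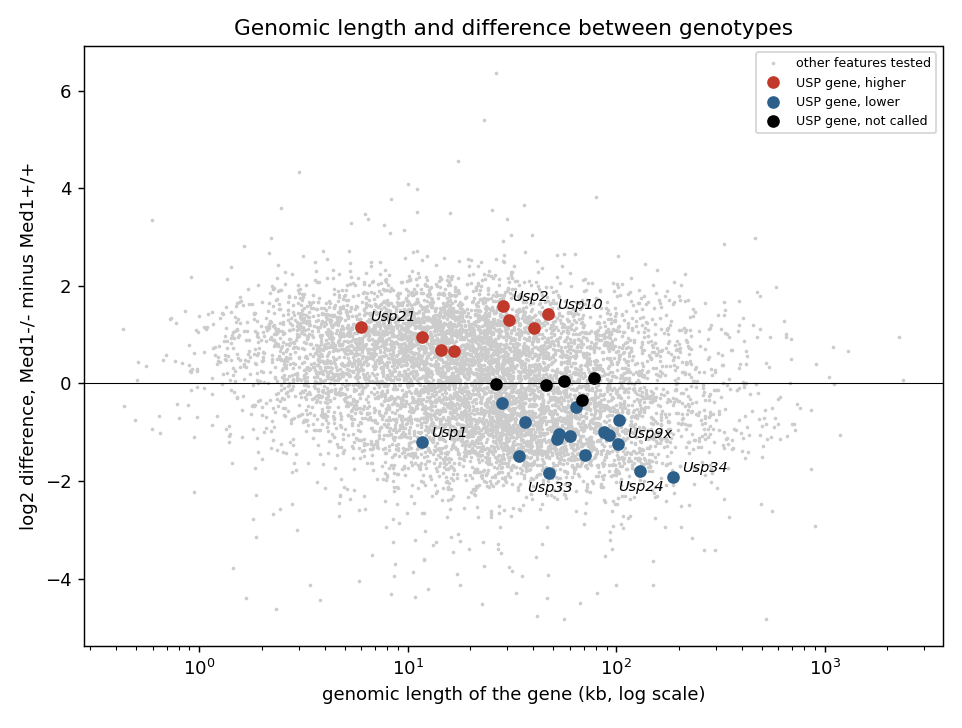
Log2 difference, Med1-/- minus Med1+/+, against genomic length in kb (log scale) for the 29 USP genes (large points, coloured by call) and the other features tested (small grey points). The higher USP genes all lie at 47.2 kb or less, and the lower ones reach 187 kb.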

How the data were processed

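Total RNA of 2 Med1-/- and 2 Med1+/+ samples was labelled by in vitro transcription with a kit from Affymetrix, per the labels' protocols. The deposited table held linear intensities by probe set. The summary of probes, background correction and scaling that the authors used are not given in the sources used here. After removal of 64 control probe sets, the other 22626 were quantile normalized. Gene names are those of the platform annotation, brought up to date by Entrez identifier with RefSeq (GRCm38.p6). The pseudocount of 1.7 is the table's 10th percentile. The filter removed 9050 probe sets, those whose mean lay below the 40th percentile, and the brightest remaining probe set stood for a gene. Genotypes were compared in limma 3.58.1 under R 4.3.3 with lmFit and eBayes (intensity trend, two-sided; 2 residual and 4.71 prior degrees of freedom). Calls reflect only the spread between these samples, and the number of arrays limits the precision. The procedure was tested on simulated data with few changed features and a shared array scale, which does not test the scaling.

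The members and lists were chosen with earlier results of these data known. By rule, values per array are given for the 8 largest called rises and falls, X-linked members and close relatives. Those of other genes, and genes of other lists outside their 3 largest changes, were chosen after their values were seen. Alternatives varied the filter, scaling, pseudocount, probe set, variance model, replicate block, arrays and threshold. Figures used matplotlib 3.10.9 in Python 3.11.15.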

Additional observations from a re-analysis of the deposited data

How the results depend on the processing

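Of the 24 called USP genes, Usp11, Usp16, Usp48 and Usp53 lost their call in at least 1 of the 4 fits that left out 1 array. The share of all called features that kept theirs was not counted, so the kept calls say nothing particular about USP genes. In those fits the number of higher USP genes ran from 7 to 8 and of lower ones from 14 to 15, with medians from -0.55 to -0.40, Usp39 ran from -0.0945 to 0.0732 and Usp49 from -0.10 to 0.20. The median log2 difference of the USP genes was -0.26 without the filter and -0.76 with the filter at the 60th percentile, where 5 were higher. It was -1.45 as deposited, with 17 lower and 0 higher by limma, and 0 higher at an unadjusted p under 0.05. On the hybridisation controls it was -1.47, with 3 higher and 21 lower. The genes not called after quantile normalization were all called lower there, namely Usp3 (-0.90), Usp4 (-0.97), Usp7 (-1.09), Usp39 (-0.69) and Usp49 (-0.98). After quantile normalization 5 were higher at 2-fold or more. Over all features the higher calls numbered 265 as deposited, 1178 on the hybridisation controls and 1890 at 2-fold or more, against 3490, and the lower calls 5343 on the hybridisation controls and 1715 at 2-fold or more, against 3232. Other deubiquitinases had 1 higher call as deposited, 2 on the hybridisation controls and 3 at 2-fold or more, against 7.

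Differences turned sign as deposited for Usp11 (-0.36), Usp5 (-0.17), Usp3 (-0.89) and Usp49 (-0.97), and on the hybridisation controls for Usp11 (-0.37), Usp5 (-0.18), Usp3 (-0.90) and Usp49 (-0.98). With 75th percentiles set equal they did so for Usp3 (-0.0172), Usp49 (-0.103) and Usp39 (0.201), with array medians set equal for Usp39 (0.39) and Usp4 (0.11), and with the mean over probe sets for Usp7 (0.0530). The cause was not tested. The replicate numbers of the labels are no stated pairing, and samples with the same number deviated together with a correlation of 0.273 over features. With the replicate number as a block 8 USP genes were higher and 17 lower, Usp7 being the added call, and over all features 3825 were higher and 3500 lower. Signal over background is not given for these values, so dim genes are limited by the filter alone.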
